A study of Caenorhabditis elegans with 6 samples.

Results

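Intestinal identity and brush border genes are described here as 9 genes of Caenorhabditis elegans that mark the intestine: the GATA factor genes elt-2 and elt-7, the enzyme genes ges-1, pho-1 and spl-1, the transporter gene pept-1, and the apical cytoskeleton genes act-5, ifb-2 and erm-1. They were chosen by name among 46911 genes counted in each library, and 9 of 9 names matched a WormBase gene identifier. The study sequenced RNA of whole animals at the fourth larval stage (L4), with 3 libraries of strain VC295, which carries unc-30(ok613) on chromosome IV, and 3 of the wild-type strain N2. Both groups grew at 20 °C on plates seeded with E. coli OP50. unc-30 encodes a homeodomain transcription factor of GABAergic motor neurons, and no treatment or transgene is named for either group. The sources used here do not give the extent of the ok613 deletion or any outcrossing of VC295. The comparison asks whether intestinal genes, and with them the share of intestinal RNA, differed between the mutant and wild type.

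The nematode intestine is a tube of large epithelial cells that digests food, stores nutrients and makes yolk. Its fate and its later gene expression depend on GATA transcription factors, of which ELT-2 acts throughout life and ELT-7 acts with it. Each cell faces the lumen with a brush border, in which microvilli built on the actin ACT-5 are anchored in a terminal web of intermediate filaments, and the ezrin-radixin-moesin protein ERM-1 links actin to the apical membrane.

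Total counts were 17318736 to 26377332 per library. Levels are given as CPM, the reads of a gene relative to library size, here scaled by the trimmed mean of M-values (TMM). The scaling factors lay between 0.654 and 0.760 for mutant libraries and between 1.38 and 1.49 for wild-type libraries. Because these factors differ so much, scaling by total counts lowered the median log2 fold change of all tested genes by 1.01, and each direction below is relative to the TMM reference unless another is named. Ribosomal RNA took 7.65% to 12.7% of counts in the mutant and 0.394% to 8.20% in the N2 libraries. Mutant replicate 1 and wild type replicate 2 lay nearer to the other genotype on the first principal component (-31.9 and 37.9) than the other libraries did (-98.3 and -96.7 in the mutant, 92.6 and 96.4 in wild type). When the tested genes were cut into 5 bins by exon length, the median log2 fold change was 0.36 for the shortest bin (63 to 776 bases) and -0.49 for the longest (2303 to 56044 bases). unc-30 had 17 to 24 reads per mutant library and 17 to 26 per wild-type library (edgeR adjusted p = 0.128), and since the deleted part of the gene is not known here, these reads do not check the labels. unc-25, a GABA synthesis gene that UNC-30 activates, had 3.67, 6.02 and 4.998 CPM in mutant libraries and 11.4, 14.8 and 16.2 CPM in wild-type libraries, so it was lower in each library of the strain labelled as mutant (edgeR adjusted p = 0.00632). In RNA of whole animals, fewer cells of a type and less RNA per cell cannot be told apart.

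Of the 9 intestinal genes, act-5 and spl-1 were higher in the mutant, 0 were lower, and 7 did not pass the test (edgeR quasi-likelihood test, Benjamini-Hochberg adjusted p under 0.05 over 14506 tested genes). Among all tested genes, 38% differed, 17.1% higher and 20.9% lower. Of the intestinal genes 22.2% differed, all of them higher. With 9 genes, these shares are too coarse to set the intestinal genes apart from all tested genes. The groups did not overlap for 4 of the 9 genes (44.4%), compared with 52.6% of all tested genes: the mutant was above for 2 (24.4% of all tested genes) and below for 2 (28.2%). The median log2 fold change of the 9 was -0.12, and that of all tested genes was -0.10. Each of the 9 had at least 62 counts in every library, so their passing of the expression filter did not rest on 1 group. With scaling by total counts, 0 of the 9 were higher and 5 were lower (elt-2, elt-7, pept-1, pho-1 and erm-1), where 59.8% of tested genes differed, 3.43% higher and 56.4% lower. With the trend on gene length removed, act-5 and spl-1 were again the 2 that passed, both higher, where 37.6% of tested genes differed, 19.4% higher and 18.2% lower.

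**Figure D1:**
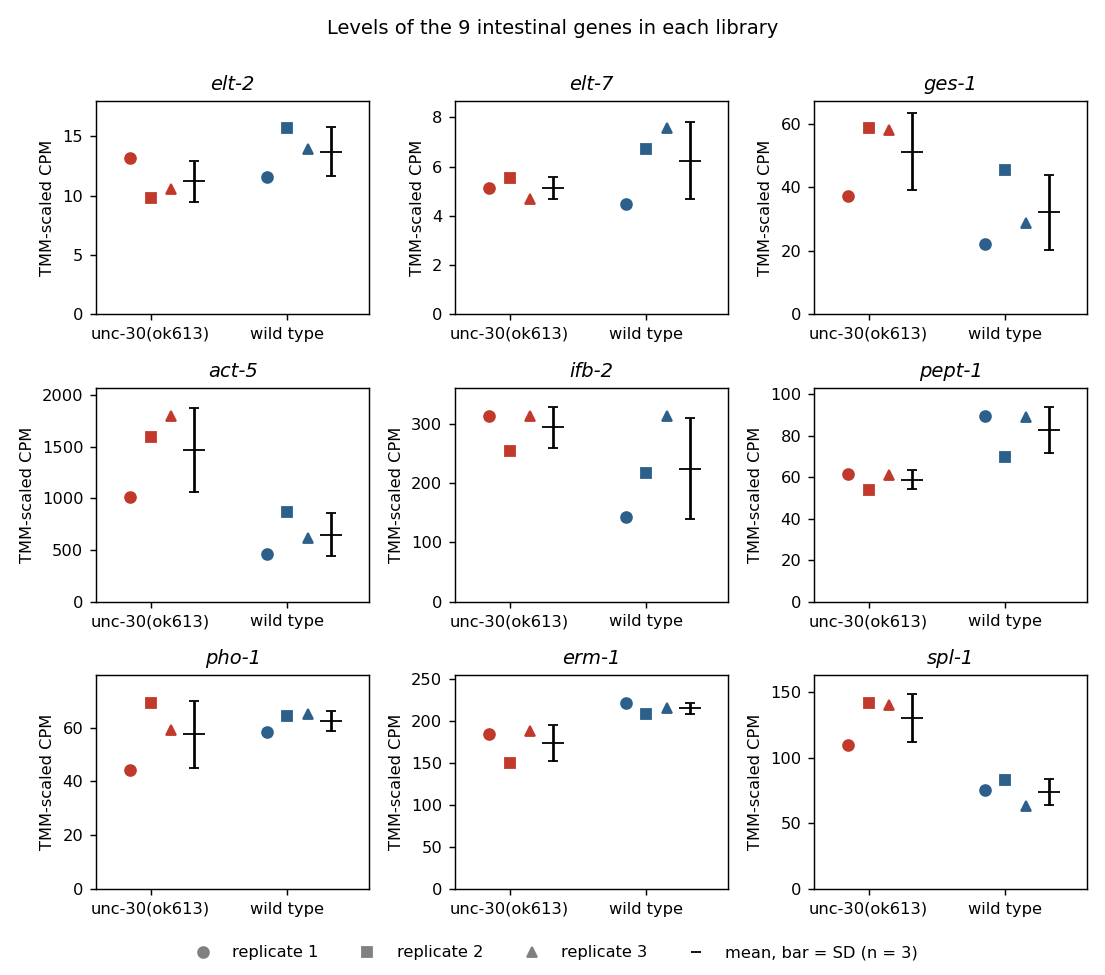
TMM-scaled CPM (vertical axes, starting at 0) of each of the 9 genes in the 3 mutant (red) and 3 wild-type (blue) libraries; symbols mark the replicate, and black bars the mean and SD. All 3 mutant libraries lie above all 3 wild-type libraries for act-5 and spl-1 and below them for pept-1 and erm-1, and the groups overlap for the other 5 genes.

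The levels of both GATA factor genes overlapped between the genotypes. elt-2 (WBGene00001250, chromosome X, 10481240 to 10483441, plus strand, WBcel235) encodes the main GATA factor of the differentiated intestine. Its level was 13.2, 9.82 and 10.6 CPM in mutant replicates 1 to 3 and, in the same order, 11.5, 15.7 and 13.9 CPM in wild type. The lowest wild-type library therefore lay below the highest mutant library, and the log2 fold change was -0.29 ± 0.26 (SE; edgeR adjusted p = 0.393). elt-7 (WBGene00015981, chromosome V, 4770670 to 4773086, plus strand), its partner in gut differentiation, had 5.15, 5.55 and 4.70 CPM in the mutant and 4.49, 6.70 and 7.55 CPM in wild type. Wild type replicate 1 was the lowest of the 6 libraries and replicates 2 and 3 were the highest, and the log2 fold change was -0.28 ± 0.30 (SE; edgeR adjusted p = 0.481). The ratio of elt-7 to elt-2 reads, which needs no scaling, ranged from 0.390 to 0.565 in mutant libraries and from 0.388 to 0.542 in wild-type libraries, so the ranges overlapped almost wholly. With scaling by total counts both genes passed as lower in the mutant: the log2 fold change was -1.29 for elt-2 (edgeR adjusted p = 0.00456) and -1.28 for elt-7 (0.00625).

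act-5, the actin of the microvilli, had the largest difference of the 9 genes. act-5 (WBGene00000067, chromosome III, 13604412 to 13606066, minus strand) had 1012, 1593 and 1800 CPM in mutant replicates 1 to 3, against 461, 869 and 616 CPM for wild type. The lowest mutant library was above the highest wild-type library, and the fold change was 2.26 (log2 1.18 ± 0.30, SE; edgeR adjusted p = 0.0163). It no longer passed when mutant replicate 2 (adjusted p = 0.0581), mutant replicate 3 (0.0712) or wild type replicate 3 (0.0660) was left out, with log2 fold changes of 1.06 to 1.18 there. With scaling by total counts the log2 fold change was 0.15 and the groups overlapped (768 to 1178 CPM in the mutant, 685 to 1220 CPM in wild type; edgeR adjusted p = 0.620). No aligner is named in the sources used here, so reads shared between act-5 and the other, closely similar actin genes could have been assigned in part to another family member or left out.

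ifb-2, an intermediate filament gene of the terminal web, and erm-1 did not pass the test. ifb-2 (WBGene00002054, chromosome II, 5750188 to 5754140, plus strand) had 314, 255 and 314 CPM in the mutant and 143, 217 and 313 CPM in wild type. Wild type replicate 3 reached the level of the mutant while replicate 1 was the lowest, and the log2 fold change was 0.39 ± 0.29 (edgeR adjusted p = 0.304). erm-1 (WBGene00001333, chromosome I, 5284026 to 5291604, minus strand) had 184, 149 and 187 CPM in the mutant and 221, 208 and 215 CPM in wild type. The groups did not overlap, but the log2 fold change of -0.31 ± 0.18 was not past the threshold (edgeR adjusted p = 0.214), and it was 0.06 with the trend on gene length removed. With scaling by total counts erm-1 was lower in the mutant (log2 fold change -1.32, edgeR adjusted p = 0.00120).

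Of the 3 enzyme genes, spl-1 rose and ges-1 and pho-1 did not pass. spl-1 (WBGene00004981, chromosome IV, 379885 to 383185, minus strand) encodes the sphingosine-1-phosphate lyase, which ends the breakdown of sphingolipids. Its level was 109, 141 and 140 CPM in the mutant and 75.5, 82.7 and 62.9 CPM in wild type. The groups were apart and the fold change was 1.77 (log2 0.82 ± 0.21, SE; edgeR adjusted p = 0.0167). This call was also lost without mutant replicate 2 (adjusted p = 0.0731), mutant replicate 3 (0.0746) or wild type replicate 3 (0.0607), where its log2 fold change was 0.72 to 0.83, and with scaling by total counts the log2 fold change turned to -0.20 (0.418).

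ges-1 (WBGene00001578, chromosome V, 1427653 to 1432137, minus strand), the gut esterase long used as an intestinal marker, had 37.1, 58.5 and 58.0 CPM in the mutant and 22.3, 45.3 and 28.7 CPM in wild type. The lowest mutant and the highest wild-type library crossed, and these were the same libraries that lay nearest to the other genotype on the first principal component. The log2 fold change was 0.67 ± 0.32 (edgeR adjusted p = 0.122). ges-1 passed as higher without wild type replicate 2 (log2 fold change 1.01, edgeR adjusted p = 0.0290) and without both of those libraries (1.23, 0.00418). The pair was chosen after the data were seen, for lying nearest the other genotype, so leaving it out draws the groups apart. In that setting 7469 of 14854 tested genes differed, against 5511 of 14506 with all libraries. pho-1 (WBGene00004020, chromosome II, 5233156 to 5235846, minus strand), the acid phosphatase of the gut lumen, had 44.4, 69.1 and 59.1 CPM in the mutant and 58.2, 64.1 and 65.2 CPM in wild type. The mutant libraries spread on both sides of the wild-type range, and the log2 fold change was -0.12 ± 0.22 (edgeR adjusted p = 0.695). Of its exon bases, 7.94% overlap EGAP2.1 on the opposite strand, which had 17 to 156 counts per library, and no strand setting of the counting is named in the sources used here.

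pept-1, which encodes the apical transporter that takes up oligopeptides with protons, had the lowest log2 fold change of the 9. pept-1 (WBGene00003877, chromosome X, 6456872 to 6461767, plus strand) had 61.7, 53.8 and 61.3 CPM in the mutant and 89.7, 69.9 and 88.98 CPM in wild type. Each mutant library lay below each wild-type library, yet the log2 fold change of -0.49 ± 0.20 did not pass (edgeR adjusted p = 0.0836). It passed as lower without both libraries nearest the other genotype (-0.60, edgeR adjusted p = 0.0425). That pair was chosen after the data were seen, and 7469 of 14854 tested genes differed without it. With the trend on gene length removed, the log2 fold change of pept-1 was -0.06 (edgeR adjusted p = 0.813). Scaling by total counts gave -1.51 (0.00127).

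**Figure D2:**
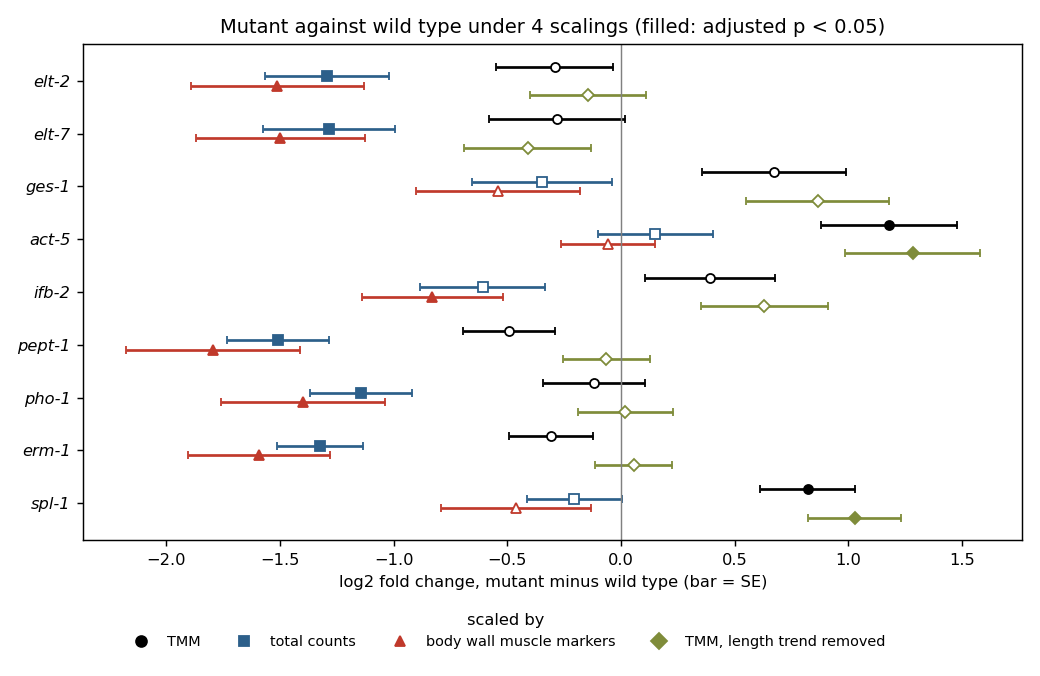
Log2 fold change, mutant minus wild type, with its SE (horizontal axis) for each of the 9 genes under TMM, total counts, the summed body wall muscle markers, and TMM with the trend on gene length removed; filled symbols passed an adjusted p of 0.05 in edgeR. The 9 genes keep a similar order under the first 3 scalings while the whole set shifts to the left, from a median of -0.12 under TMM to -1.14 under total counts and -1.40 under muscle markers.

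Per kilobase of merged exons, TMM-scaled levels ranged from 6.10 to 1156 in the mutant and from 7.43 to 511 in wild type. In the mutant, act-5 was highest at 1156 ± 322 (CPM per kilobase, mean ± SD, n = 3), followed by ifb-2 at 154 ± 17.97, spl-1 at 72.5 ± 10.2, erm-1 at 71.3 ± 8.63, pho-1 at 38.1 ± 8.23, ges-1 at 29.4 ± 7.01, pept-1 at 21.1 ± 1.597, elt-2 at 7.19 ± 1.13 and elt-7 at 6.10 ± 0.511. In wild type, the order was act-5 (511 ± 162), ifb-2 (118 ± 44.8), erm-1 (88.1 ± 2.70), pho-1 (41.4 ± 2.48), spl-1 (40.99 ± 5.58), pept-1 (29.7 ± 4.02), ges-1 (18.4 ± 6.81), elt-2 (8.81 ± 1.33) and elt-7 (7.43 ± 1.88). Neighbours whose libraries overlapped in the mutant were spl-1 with erm-1, pho-1 with ges-1, ges-1 with pept-1, and elt-2 with elt-7. In wild type they were ifb-2 with erm-1, pho-1 with spl-1, pept-1 with ges-1, and elt-2 with elt-7. The transcription factor genes were the lowest and the brush border actin gene the highest in both genotypes.

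The proportions among the 9 genes differed between the genotypes, in a measure that does not depend on scaling. No other set of genes was measured in this way, so these values do not show whether the 9 differ from other genes. On the TMM scale, the groups did not overlap for 52.6% of all tested genes. For each library, the log2 reads per base of a gene were set against the mean over the 9 genes in that library. act-5 stood 4.24, 4.76 and 4.87 above that mean in mutant replicates 1 to 3, but 3.41, 3.94 and 3.51 above it in wild type. spl-1 stood 0.52, 0.76 and 0.68 above it in the mutant, compared with 0.29, 0.05 and -0.28 in wild type. For both genes the mutant libraries lay above the wild-type libraries.

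The relative values of elt-2, elt-7, pept-1 and erm-1 were lower in each mutant library than in each wild-type library. elt-2 stood at -2.68 ± 0.31 in the mutant and -2.20 ± 0.05 in wild type, and elt-7 at -2.91 ± 0.19 and -2.47 ± 0.22 (log2, mean ± SD, n = 3). pept-1 stood at -1.12 ± 0.17 against -0.45 ± 0.37, and erm-1 at 0.63 ± 0.22 against 1.13 ± 0.24. The groups overlapped for ges-1, ifb-2 and pho-1. An exact permutation test of 3 against 3 libraries cannot go below p = 0.10, so no p is given for these values. Any rise in act-5 enters the mean and lowers the relative value of the other 8 genes. The exons of pept-1 and erm-1 are the longest of the 9 (2795 and 2437 bases), and those of the other genes span 841 (elt-7) to 1908 bases (ifb-2). The part of either in the lower values was not tested.

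Reads of act-5 numbered 76.7, 162 and 170 per read of elt-2 in mutant replicates 1 to 3, compared with 39.9, 55.4 and 44.2 for wild type. Reads of spl-1 per read of pept-1 were 1.77, 2.63 and 2.29 in the mutant and 0.841, 1.18 and 0.707 in wild type. Those of ges-1 per read of pho-1 were 0.836, 0.847 and 0.981 in the mutant and 0.383, 0.706 and 0.441 in wild type. The mutant libraries were above the wild-type libraries in all 3 ratios, which were chosen after the levels were seen. Of 9 ratios computed, 6 were higher in every mutant library, 1 was lower and 2 overlapped. The 9 pairs were picked by hand and most hold act-5 or spl-1, so this count is not separate from the results for those genes. act-5 per read of ifb-2, the other brush border filament gene, overlapped (3.22, 6.25 and 5.73 for the mutant against 3.23, 4.003 and 1.97 for wild type). Mutant replicate 1 had the lowest mutant value, and wild type replicate 2 the highest wild-type value, in each of the first 3 ratios.

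**Figure D3:**
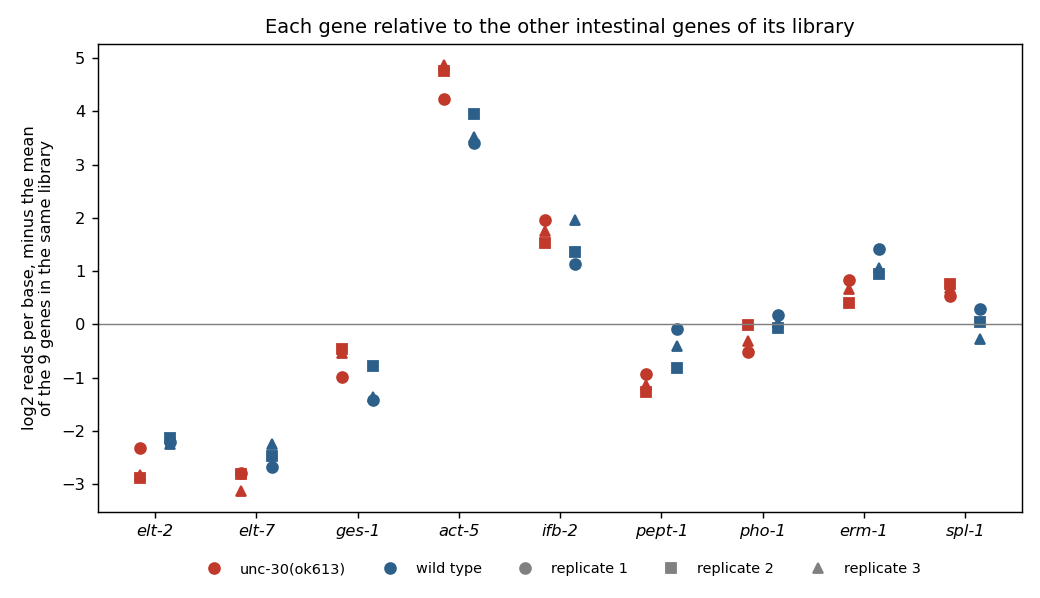
Log2 reads per base of each gene minus the mean of the 9 genes in the same library (vertical axis), for 3 mutant (red) and 3 wild-type (blue) libraries. Mutant points lie above wild-type points for act-5 and spl-1 and below them for elt-2, elt-7, pept-1 and erm-1.

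The summed reads of the 9 genes gave opposite orders under different references. They took 0.135%, 0.163% and 0.172% of all counts in mutant replicates 1 to 3 (exact 95% intervals 0.134% to 0.137%, 0.161% to 0.165% and 0.171% to 0.174%, counting error only). In wild type they took 0.162%, 0.222% and 0.194% (0.160% to 0.163%, 0.219% to 0.224% and 0.192% to 0.196%). These groups overlapped. On the TMM scale the sum was 2251 ± 434 CPM (mean ± SD, n = 3) for the mutant against 1359 ± 250 CPM for wild type, with no overlap. act-5 supplied 64.4% ± 6.61 of the summed reads in the mutant and 47.0% ± 6.97 in wild type, and without act-5 the sums were 742 to 836 CPM and 626 to 796 CPM, which overlapped.

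Relative to body wall muscle, the summed reads of the intestinal genes were lower in the mutant. There were 0.0984, 0.114 and 0.105 reads of the 9 genes per read of 10 muscle marker genes in mutant replicates 1 to 3, compared with 0.161, 0.139 and 0.157 for wild type, without overlap. The muscle markers include unc-54, unc-15 and lev-11, which encode myosin heavy chain, paramyosin and tropomyosin. Of these 10 markers 7 rose and 1 fell under TMM, where 17.1% of all tested genes rose and 20.9% fell. There were 0 falls without any library but wild type replicate 2. The summed level of the markers was 18095 to 25217 CPM in the mutant, against 6753 to 11362 CPM for wild type. Scaled to the muscle markers, 0 of the intestinal genes were higher and 6 were lower in the mutant (elt-2, elt-7, ifb-2, pept-1, pho-1 and erm-1), where 60.3% of tested genes differed, 1.79% higher and 58.5% lower. The other 3, ges-1, act-5 and spl-1, stood at log2 fold changes of -0.54, -0.057 and -0.46 there (edgeR adjusted p = 0.204, 0.815 and 0.236). Other references gave other orders. Per read of the epidermis markers the intestinal sum was 0.199, 0.128 and 0.158 in mutant replicates 1 to 3, against 1.46, 0.235 and 1.02 for wild type, again lower without overlap. Per read of the sperm markers it was 6.55, 10.7 and 11.1 for the mutant against 3.80, 4.62 and 3.07 for wild type, higher without overlap. The ranges overlapped per read of the pharynx markers (4.37 to 5.60 against 3.79 to 4.75), the neuron markers (4.28 to 4.92 against 4.81 to 6.01), the germ line and oocyte markers (0.465 to 1.27 against 0.374 to 0.719) and the excretory canal markers (16.2 to 21.7 against 8.498 to 20.04).

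**Figure D4:**
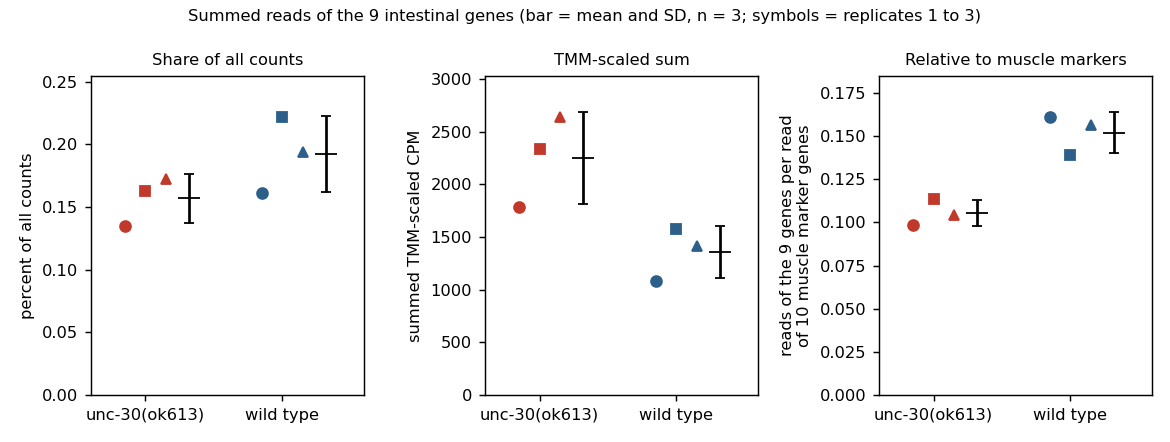
Summed reads of the 9 genes as a percent of all counts (left), as TMM-scaled CPM (middle) and per read of the 10 body wall muscle markers (right), for 3 mutant (red) and 3 wild-type (blue) libraries, with mean and SD. The groups overlap on the left, the mutant is higher in the middle (2251 against 1359 CPM) and lower on the right.

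Markers of other cell types are given beside the 38% of all tested genes that differed. The share that differed was 60% for sperm, 50% for pharynx, 40% for neuron and 30% for epidermis markers. It was 20% for germ line and oocyte, 16.7% for excretory canal and 0% for coelomocyte markers. The part of these cell types in the intestinal results was not tested. Of 10 epidermis markers 3 rose and 0 fell; their sum was 8927, 18253 and 16706 CPM in mutant replicates 1 to 3, against 745, 6726 and 1383 CPM for wild type, so wild type replicate 2 stood closest to the mutant. The 3 rises were 6 without wild type replicate 2, 1 without wild type replicate 1 and 0 with mutant replicate 2, mutant replicate 3 or wild type replicate 3 left out. Of 10 sperm markers 0 rose and 6 fell (218 to 272 CPM in the mutant, 286 to 459 CPM in wild type), and of 10 germ line and oocyte markers 0 rose and 2 fell (2028 to 3832 CPM against 1963 to 2901 CPM). Of 10 neuron markers 2 rose and 2 fell (416 to 544 CPM against 226 to 267 CPM), and of 8 pharynx markers 3 rose and 1 fell (379 to 604 CPM against 287 to 341 CPM). The median log2 fold change was -0.45 for the neuron markers (3 of 10 above 0) and 0.22 for the pharynx markers (4 of 8). Both sums were nonetheless higher in every mutant library, so a sum can differ from the direction of most genes in its list. The neuron falls were 0 with mutant replicate 2 or 3 left out and 1 with any wild-type library left out, and the pharynx rises were 0 with mutant replicate 3 or wild type replicate 3 left out. The germ line falls were 1 without any library but mutant replicate 1. act-5 and erm-1 are also made in the excretory canal, whose 6 markers had 0 rises and 1 fall and summed to 108 to 123 CPM in the mutant, against 78.8 to 128 CPM for wild type, with 0 falls when mutant replicate 2 or wild type replicate 1 or 3 was left out. Both coelomocyte markers did not pass (7.98 to 9.996 CPM against 8.26 to 13.002 CPM). None of these markers was at 0 in all libraries. vit-6, a yolk protein gene of the intestine looked up after it was seen among the most abundant genes, had 4354, 233 and 319 CPM in the mutant and 9114, 2562 and 5097 CPM in wild type. Mutant replicate 1 was within the wild-type range of vit-6 and the other mutant libraries were far below it (edgeR adjusted p = 0.248).

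From the lists of related genes, 27 genes past the threshold are described below. The rises and falls counted in each list stand beside 17.1% higher and 20.9% lower among all tested genes. Scaling by total counts and to the muscle markers lowers all genes, so a rise tends to lose its call and a fall to keep it. Of the 13 rises, 3 (asah-1, pho-11 and act-1) passed with the former and 1 (act-1) with the latter, and the 14 falls passed with both, where 56.4% and 58.5% of all tested genes were lower. With the length trend removed, 13 of 13 rises and 10 of 14 falls passed.

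Genes of the terminal web and microvilli other than the 9 moved in both directions. Of 10 tested, 1 rose, 4 fell and 5 did not pass (median log2 fold change -0.31, against -0.10 for all tested genes). There were 2 rises without wild type replicate 2, 0 without any other library, and 2 falls without mutant replicate 2. ifc-1, an intestinal intermediate filament gene, was 1.74-fold higher, with 81.7 ± 13.5 CPM (SD, n = 3) in the mutant against 46.9 ± 13.1 CPM (edgeR adjusted p = 0.0436), but lost its call without any of the 6 libraries in turn (adjusted p = 0.0523 to 0.0971) and turned to -0.20 with scaling by total counts. ifo-1, the organizer of the intestinal filaments, had 20.3, 8.07 and 14.7 CPM in the mutant and 46.5, 42.1 and 58.5 CPM in wild type. It was thus 3.42-fold lower in the mutant, with groups far apart (edgeR adjusted p = 0.00645). ifd-2, a further intestinal filament gene, was 2.68-fold lower (7.03 ± 0.341 CPM against 18.8 ± 4.27 CPM; edgeR adjusted p = 0.00584). Both falls were also called with the length trend removed.

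The other GATA factor genes gave 0 rises and 1 fall among 5 tested. elt-1, a regulator of epidermal fate, was 1.91-fold lower, with 4.26 ± 1.17 CPM in the mutant against 8.13 ± 1.68 CPM (edgeR adjusted p = 0.0492). This call was lost without any library but wild type replicate 2 (adjusted p = 0.0839 to 0.219), and also with DESeq2 size factors (0.0615), with no expression filter (0.0654) and with the length trend removed (0.154). Without wild type replicate 1, 1 of these genes rose. end-1, end-3 and med-2, which act in the embryonic endoderm or its founder cells, had at most 11 counts in any library and were not tested, and med-1 had 0 counts in all 6.

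Of 22 tested genes of nutrient, metal and ion transport in the intestine, 2 rose, 4 fell and 16 did not pass (median log2 fold change -0.17). The rises were mtl-2, a metallothionein gene (2.53-fold, 646 ± 177 CPM against 255 ± 25.995 CPM), and vha-6, the apical V-ATPase subunit gene of the intestine (2.49-fold, 761 ± 135 CPM against 305 ± 61.6 CPM; edgeR adjusted p = 0.00518 and 0.00450). Scaled by total counts, they stood at 0.32 and 0.30 on the log2 scale. The largest falls were those of gtl-1 and itr-1, 2 genes with a part in the calcium rhythm that drives defecation. kqt-2, kqt-3, inx-16, pbo-4 and aex-5 of the same list did not pass. Their log2 fold changes were -0.41 (kqt-2) to 0.33 (aex-5), with edgeR adjusted p = 0.287 to 0.816. gon-2 and cua-1 of this list also fell (log2 fold change -1.82 and -0.91, edgeR adjusted p = 0.00271 and 0.0256). With the length trend removed, gon-2 still passed (-1.12, 0.00455) and cua-1 did not (-0.35, 0.217). gtl-1, a TRPM channel gene, had 5.60, 1.87 and 2.73 CPM in the mutant and 30.1, 18.2 and 36.6 CPM in wild type, 8.32-fold lower in the mutant (edgeR adjusted p = 0.00312). itr-1, the inositol trisphosphate receptor gene, had 16.9, 9.004 and 9.77 CPM in the mutant and 74.6, 47.5 and 53.8 CPM in wild type, 4.94-fold lower (edgeR adjusted p = 0.00281). For both genes every mutant library was below every wild-type library. Their exons are long (5275 and 9187 bases), and with the length trend removed the log2 fold changes went from -3.06 to -2.51 and from -2.30 to -1.57, still past the threshold (edgeR adjusted p = 0.00405 and 0.00331).

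Of 16 tested genes of apical polarity and junctions, which act in epithelia generally, 3 rose, 4 fell and 9 did not pass (median log2 fold change 0.19). There were 0 rises with mutant replicate 2, mutant replicate 3 or wild type replicate 3 left out and 1 without wild type replicate 1, and 1 fall without mutant replicate 2 or 3. let-413, the Scribble homologue gene, was 3.00-fold lower (7.94 ± 0.567 CPM against 23.8 ± 1.73 CPM; edgeR adjusted p = 0.00304). hmp-1, the alpha-catenin gene, was 2.44-fold lower (edgeR adjusted p = 0.0227), a call lost without mutant replicate 2 (0.0975), mutant replicate 3 (0.101) or wild type replicate 1 (0.0611) and with the length trend removed (0.0870). eat-20, a Crumbs-related gene, was 3.04-fold higher and hmp-2, the beta-catenin gene of adherens junctions, 1.78-fold higher (edgeR adjusted p = 0.0424 and 0.0456). eat-20 lost its call when either of mutant replicates 2 and 3 or of wild type replicates 1 and 3 was left out (0.0865 to 0.136) and with no expression filter (0.0971), and its log2 fold change went from 1.602 to 2.36 without wild type replicate 2. hmp-2 lost its call without any of the 6 libraries in turn (0.0548 to 0.144). Scaled by total counts, 0 of the 16 rose and 8 fell, where 56.4% of all tested genes were lower.

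Gut granules are the lysosome-related organelles of the intestine, and of their 15 genes 1 rose, 5 fell and 9 did not pass (median log2 fold change -0.52), with 3 falls when mutant replicate 2 or 3 was left out. glo-4 and glo-3, which are needed for granule formation, were 3.21-fold and 3.34-fold lower (11.8 ± 2.53 CPM against 37.8 ± 2.91 CPM, and 1.32 ± 0.433 CPM against 4.39 ± 0.588 CPM; edgeR adjusted p = 0.00306 and 0.00756). The log2 fold change of glo-4 went from -1.68 to -1.09 with the length trend removed. aps-3, a subunit gene of the adaptor complex AP-3, was 2.66-fold higher (92.7 ± 4.20 CPM against 34.8 ± 3.49 CPM, edgeR adjusted p = 0.00281). Scaled by total counts, its log2 fold change was 0.40. The other AP-3 subunit genes of the list did not rise. apb-3 fell (log2 fold change -1.21, edgeR adjusted p = 0.0148), and apd-3 (-0.71, 0.0717) and apm-3 (-0.18, 0.611) did not pass.

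Among 21 other sphingolipid genes, which share a pathway with spl-1, 5 rose, 2 fell and 14 did not pass (median log2 fold change 0.01). The rises were 2 without mutant replicate 2 and 3 with mutant replicate 3, wild type replicate 2 or wild type replicate 3 left out, and there were 0 falls without any library but mutant replicate 1 or wild type replicate 2. asah-1, an acid ceramidase gene, was 4.70-fold higher (129 ± 22.2 CPM against 27.4 ± 9.26 CPM), and hyl-2, a ceramide synthase gene, was 2.01-fold higher (85.3 ± 12.998 CPM against 42.3 ± 0.589 CPM; edgeR adjusted p = 0.00254 and 0.00697). Scaled by total counts, the log2 fold change was 1.20 for asah-1 and -0.015 for hyl-2. sphk-1, the gene of the sphingosine kinase that makes the substrate of SPL-1, was 2.06-fold lower (edgeR adjusted p = 0.0227). asm-1, an acid sphingomyelinase gene, was 1.99-fold lower (edgeR adjusted p = 0.0405). sphk-1 lost its call when either of mutant replicates 2 and 3 or of wild type replicates 1 and 3 was left out (0.0602 to 0.0974) and with the length trend removed (0.0609). asm-1 lost its call without any library but mutant replicate 1 (0.0665 to 0.184), with no expression filter (0.0626) and with the length trend removed (0.0767).

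The gene families of pho-1 and ges-1 did not move as a block. Of 10 other tested pho genes, 1 rose, 1 fell and 8 did not pass (median log2 fold change -0.27), with 3 rises when mutant replicate 1 was left out. pho-11 had 474, 502 and 509 CPM in the mutant and 114, 159 and 172 CPM in wild type, 3.34-fold higher (edgeR adjusted p = 0.00237), and its log2 fold change with scaling by total counts was 0.73 (0.0116). pho-7 was 2.70-fold lower (edgeR adjusted p = 0.0188), a call lost without mutant replicate 2 (0.0726), mutant replicate 3 (0.0824) or wild type replicate 1 (0.0561). Of 19 tested cest genes, 2 rose, 4 fell and 13 did not pass (median log2 fold change -0.77), with 0 rises without mutant replicate 2 or 3 and 1 without wild type replicate 1 or 3. cest-13 and cest-17 were 2.05-fold and 1.87-fold higher, and cest-12 and cest-10 were 4.21-fold and 3.405-fold lower (edgeR adjusted p = 0.0154, 0.0424, 0.00915 and 0.00658). cest-13 lost its call without mutant replicate 2 (0.0505) or 3 (0.0541), and cest-17 when either of mutant replicates 2 and 3 or of wild type replicates 1 and 3 was left out (0.101 to 0.144).

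Of 8 other tested actin and intermediate filament genes, 4 rose, 0 fell and 4 did not pass. Leaving out mutant replicate 1 or wild type replicate 1 gave 1 fall. The 4 rises were those of the actin genes act-1 to act-4, which serve muscle and other cells, with log2 fold changes of 1.44 (act-4) to 1.95 (act-1), all above the 1.18 of act-5. act-1 was 3.87-fold higher (1405 ± 220 CPM against 363 ± 96.5 CPM) and act-3 was 3.67-fold higher (39.6 ± 9.66 CPM against 10.8 ± 4.98 CPM; edgeR adjusted p = 0.00249 and 0.00614). Scaled by total counts, the log2 fold changes were 0.93 for act-1 and 0.87 for act-3. Reads of act-5 per read of act-4 were 0.282, 0.294 and 0.299 in the mutant and 0.329, 0.365 and 0.353 in wild type, so act-5 was lower relative to act-4 in each mutant library.

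**Figure D5:**
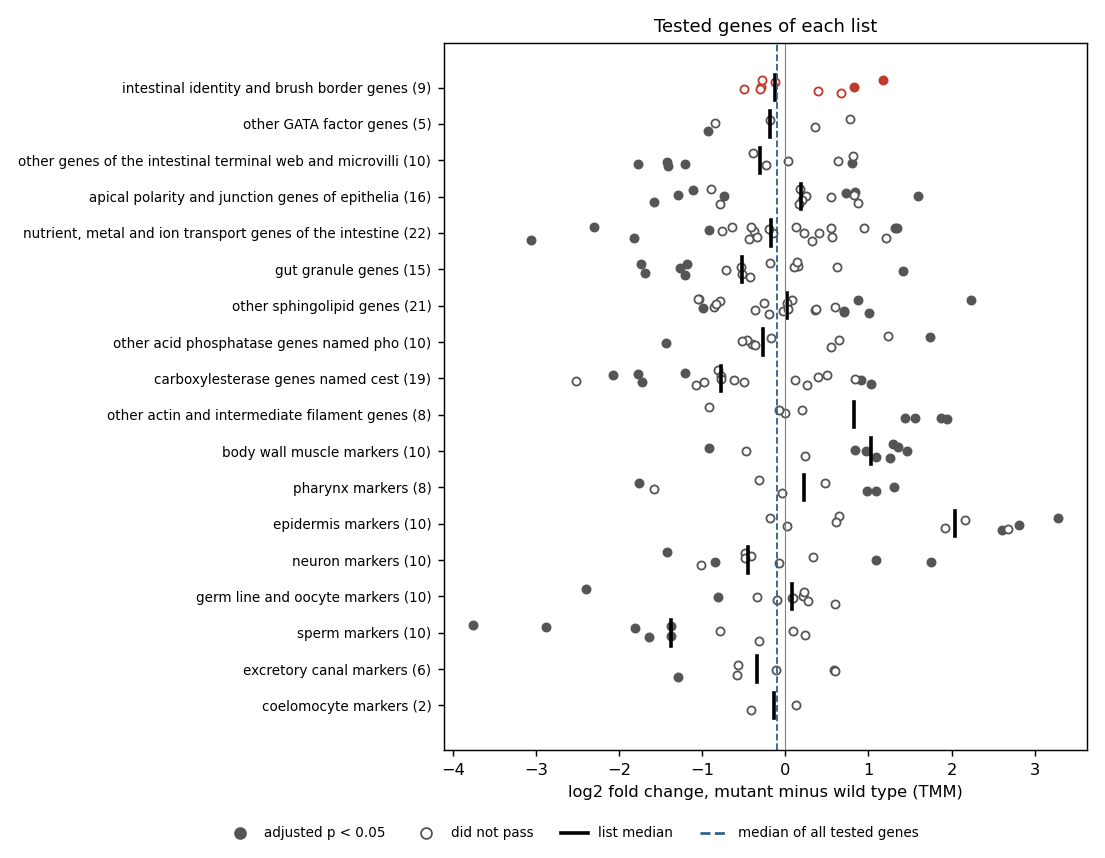
Log2 fold change under TMM (horizontal axis) of each tested gene of the intestinal genes (red), the related gene lists and the marker lists of other cell types, with the number tested in brackets; filled points passed an adjusted p of 0.05. The median of the 9 intestinal genes (-0.12) lies next to that of all tested genes (-0.10, dashed), while the body wall muscle, epidermis and sperm medians are 1.03, 2.04 and -1.37.

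The genes whose pattern over the 6 libraries was most like the mean of the 9 were ifb-1, F53F10.2, ZK1321.4, akt-2 and unc-97. Likeness was the root mean square difference of log2 CPM, each gene centred on its own mean, and was 0.06 to 0.08 for these 5 genes. The 9 intestinal genes themselves differed from their own mean by 0.23 (pho-1) to 0.56 (act-5). The 5 genes were picked as the closest of all genes compared, so their smaller values follow from that choice. The distances of all other genes are not given, so these values do not show whether the 9 vary more than other genes. The log2 fold change of ifb-1, an intermediate filament gene of the epidermis and other tissues, was 0.20 (edgeR adjusted p = 0.465).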

How the data were processed

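RNA of 6 libraries of whole L4 animals was analysed, 3 of unc-30(ok613) and 3 of wild type, grouped by the strain label, since the genotype label names the mutant allele for all 6. Values in the deposited files are raw counts per gene from HTSeq, per the submitters' processing notes (DESeq2 is named there too). No aligner, build, strand setting or version is named in the sources used here. The labels do not say whether replicates were separate cultures, and the spread behind each p-value may therefore be technical. Symbols, coordinates and merged exon lengths came from the WBcel235 annotation of Ensembl release 115.

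Counts were tested with edgeR 4.0.16 (R 4.3.3): default expression filter, TMM factors, robust quasi-likelihood F-test, group as the only term, Benjamini-Hochberg adjustment over 14506 genes. SE is the log2 fold change divided by the root of F. The fits were tested on simulated counts in which few genes were changed, equally up and down. No changed gene was called with the wrong sign, but the share of false calls was above the nominal level of 0.05. The simulation held no shift in composition and no length trend, so it does not check directions that turn with the scaling. No 2 replicates agreed within sampling noise (chi-square of 31.9 to 255 per degree of freedom). The intestinal genes and the 17 other lists (9 of related genes, 8 of cell types) were chosen with earlier results of these data known; 2 listed symbols had no match. From each related list, the 2 largest rises and 2 largest falls past the threshold are named. Genes most like the 9 had a mean of at least 5 CPM, with 0.1 CPM added before taking logs. Alternatives were DESeq2 1.42.0, limma-voom 3.58.1, other scalings, no filter, removal of the trend on exon length, a replicate term and leaving out libraries.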

Additional observations from a re-analysis of the deposited data

How the results depend on the processing

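The number of genes differing, 5511 (2476 higher, 3035 lower), was 8673 with scaling by total counts (498 and 8175) and 8750 with scaling to the muscle markers (259 and 8491); leaving out single libraries gave 2791 to 6154 (1359 to 2897 higher, 1424 to 3257 lower). Of the 9 intestinal genes, 2 differed, both higher; total counts gave 0 higher and 5 lower, muscle markers 0 and 6, the replicate block 4 calls of which 1 was lower, and leaving out both libraries nearest the other genotype (chosen after seeing the data) 4 calls of which 1 was lower. Leaving out single libraries gave 0 to 3 calls, with 0 lower each time and 0 calls when mutant replicate 2, mutant replicate 3 or wild type replicate 3 was the one left out. The 2 calls held in DESeq2, in limma-voom, with DESeq2 size factors, with no filter, with the length trend removed and with the replicate block.

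Directions turned with total counts for ges-1 (-0.35), ifb-2 (-0.61), spl-1 (-0.20), ifc-1 (-0.20), hmp-2 (-0.17), hyl-2 (-0.015) and cest-17 (-0.12). With muscle markers they turned for ges-1 (-0.54), act-5 (-0.057), ifb-2 (-0.83), spl-1 (-0.46), ifc-1 (-0.40), hmp-2 (-0.41), hyl-2 (-0.28), cest-13 (-0.21) and cest-17 (-0.34). These scalings lower the median of all genes by 1.01 and 1.27. erm-1 (0.055) and pho-1 (0.020) turned with the length trend removed, and pho-1 also without mutant replicate 1 (0.11) and without both libraries nearest the other genotype (0.10); for these the cause was not tested.

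Replicate numbers were not taken to pair the samples, since 2 of 3 correlations of same-numbered deviations, not all, were over 0.1 (0.45, 0.42 and -0.07); 4 of 6 libraries correlated best with their own number, a hint from the data and not the design. Under the replicate block ges-1 (0.71, edgeR adjusted p = 0.0186) and pept-1 (-0.49, 0.0474) passed and 6943 genes differed. Depth limits elt-7 most, with 62 to 241 counts per library.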
